A study of Mus musculus with 6 samples.

Results

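Matrix metalloproteinases (*Mmp* genes), ADAM and ADAMTS proteases, ADAMTS-like proteins and the tissue inhibitors of metalloproteinases (*Timp* genes) were examined in RNA from the proximal end of the mouse incisor, a tooth that grows throughout life. The rule took every gene of the deposited table whose name is Mmp, Adam or Adamts with a number, with a letter after it where the *Mmp* or *Adam* name has one, or Adamtsl or Timp with a single digit, and with one exception this gave 59 of 19270 genes. The study asked what changes in gene expression follow the loss of *Arid1b*, a subunit of the BAF chromatin remodeling complex, in the GLI1+ lineage. There were 3 control and 3 mutant libraries from mice that received tamoxifen at 1 month of age and were collected 4 days after induction. The mutants were *Gli1-CreER;Arid1bfl/fl* mice, in which Cre follows the *Gli1* promoter, so *Arid1b* is not targeted in cells outside the *Gli1* lineage. According to the study, this lineage includes both mesenchyme and epithelium of the incisor, and *Arid1b* was deleted in both. The labels call the tissue incisor, and the methods describe a dissection of its proximal mesenchyme. The labels give the genotype of the controls as wild type, whereas the methods describe them as *Arid1bfl/fl* mice given the same injections. The labels state neither the sex of the mice nor whether a library came from a single mouse.

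Matrix metalloproteinases are zinc-dependent enzymes that cut collagens and other matrix proteins outside the cell or at its surface. ADAM proteases mostly release the outer parts of membrane proteins, such as growth factors and the Notch receptor, and ADAMTS proteases trim proteoglycans, procollagens and microfibrils, while TIMP proteins block these enzymes. The continuously growing incisor lays down and remodels a collagen-rich matrix in pulp, follicle and dentin.

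The values are the authors' means per group of a normalized signal whose upper quartile over genes was nearly equal in all libraries (44.57 to 44.58). Values of single libraries for each gene were not analysed here. For this reason no mean carries an SD, no difference was tested across mice, and a ratio of means is a description of these 2 groups of libraries. Read as reads plus 1 times a factor per library, the lowest values correspond to about 37123643 to 49594469 reads per library, and 3 reads in every library correspond to means of 0.103 (control) and 0.0923 (mutant). Counting intervals given below are 95% exact binomial (Clopper-Pearson) intervals of the ratio under that reading, and they cover counting error only, not the spread between mice. That reading is an inference from the lowest value of each library and holds only in part. Of means up to 2 times the lowest of their group, whole reads gave 41 of 57 in controls and 13 of 28 in mutants to within 0.1%, so every read number and counting interval is approximate. *Arid1b* (chromosome 17, 4994332 to 5347656 in GRCm38) had a control mean of 97.6 and a mutant mean of 38.0, a ratio of 0.390. The listed dental mesenchyme markers were present, with *Col1a1* at 21211 and 17127 and *Pdgfra* at 486.8 and 423.4 in controls and mutants. Markers of dental epithelium were present too, and the groups differed in them. All 11 listed dental epithelium markers were at least 1.5-fold higher in the mutants, with summed means of 1749 (control) and 10574 (mutant). The Y-linked *Ddx3y* was at the lowest value of the table in the controls and at 65.3 in the mutants. The Y-linked *Eif2s3y*, *Uty* and *Kdm5d* were under the value of 3 reads in the controls and at 25.3, 29.8 and 27.4 in the mutants. *Xist* was at 3368 and 813.8. The control mean thus held almost no Y-linked RNA, and the mutant mean held both Y-linked RNA and *Xist*. This difference in sex between the groups cannot be told apart from genotype. The part of epithelium or sex in the ratios below was not tested, and in whole tissue fewer cells of a type and less RNA per cell cannot be told apart.

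Most genes of the group had similar means in both groups of mice, while a small number stood well apart. A mean of both groups of at least 1 was reached by 50 of the 59 genes. Here higher and lower compare the group means of the mutants with those of the controls, and no test stands behind them. Of these 50, 7 were at least 1.5-fold higher in the mutants (14.0%), against 4.14% of all 14744 genes at that level. Another 2 were at least 1.5-fold lower (4.00%), against 1.91% of all genes. The 7 higher genes were *Mmp13*, *Mmp9*, *Adam8*, *Adamts5*, *Adamts16*, *Adamts18* and *Adamtsl3*, and the 2 lower ones were *Adam23* and *Mmp17*. With a control mean of 0.809, *Adam8* reached the minimum of 1 only through its mutant mean of 1.48. The other 41 lay within 1.5-fold. Beside the 7 higher genes, the 3 enamel matrix genes of the dental epithelium list (*Amelx*, *Ambn* and *Enam*) had ratios from 5.44 to 14.6 and its 8 other markers from 1.69 to 2.35. The summed means of those 8 had a ratio of 2.02, and those of the macrophage markers one of 1.06. Beside the 2 lower genes, all 5 odontoblast markers had lower means, with a ratio of sums of 0.792. Of the 10 dental mesenchyme markers, 7 had lower means, among them *Gli1* at 106.4 and 46.1. The other 3 had higher means, among them *Igfbp6* at 6.045 and 9.60. The part of these cell types in the ratios was not tested. Neither the labels nor the methods give the controls a *Gli1-CreER* allele. An effect of that allele on *Gli1* or on other genes therefore cannot be told apart from the loss of *Arid1b*. The median log2 ratio of the 50 genes was -0.05, with 21 ratios over 1 and 29 under 1. The median of all 14744 genes was 0.00498, with 7573 ratios over 1 and 7171 under 1. With a minimum mean of 10 in its place, 4 of 35 were higher (11.4%, all genes 2.15%) and 2 of 35 were lower (5.71%, all genes 0.912%). *Mmp9*, *Adamts5* and *Adamtsl3* reached that minimum only through their mutant means, and *Mmp17* only through its control mean. The genes nearest to the threshold from inside were *Adamts18*, *Adamtsl3* and *Mmp9*, with log2 ratios of 0.67, 0.74 and 0.87. From outside they were *Adamts17*, *Adamts4* and *Adamts19*, at -0.49, -0.49 and -0.46.

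**Figure D1:**
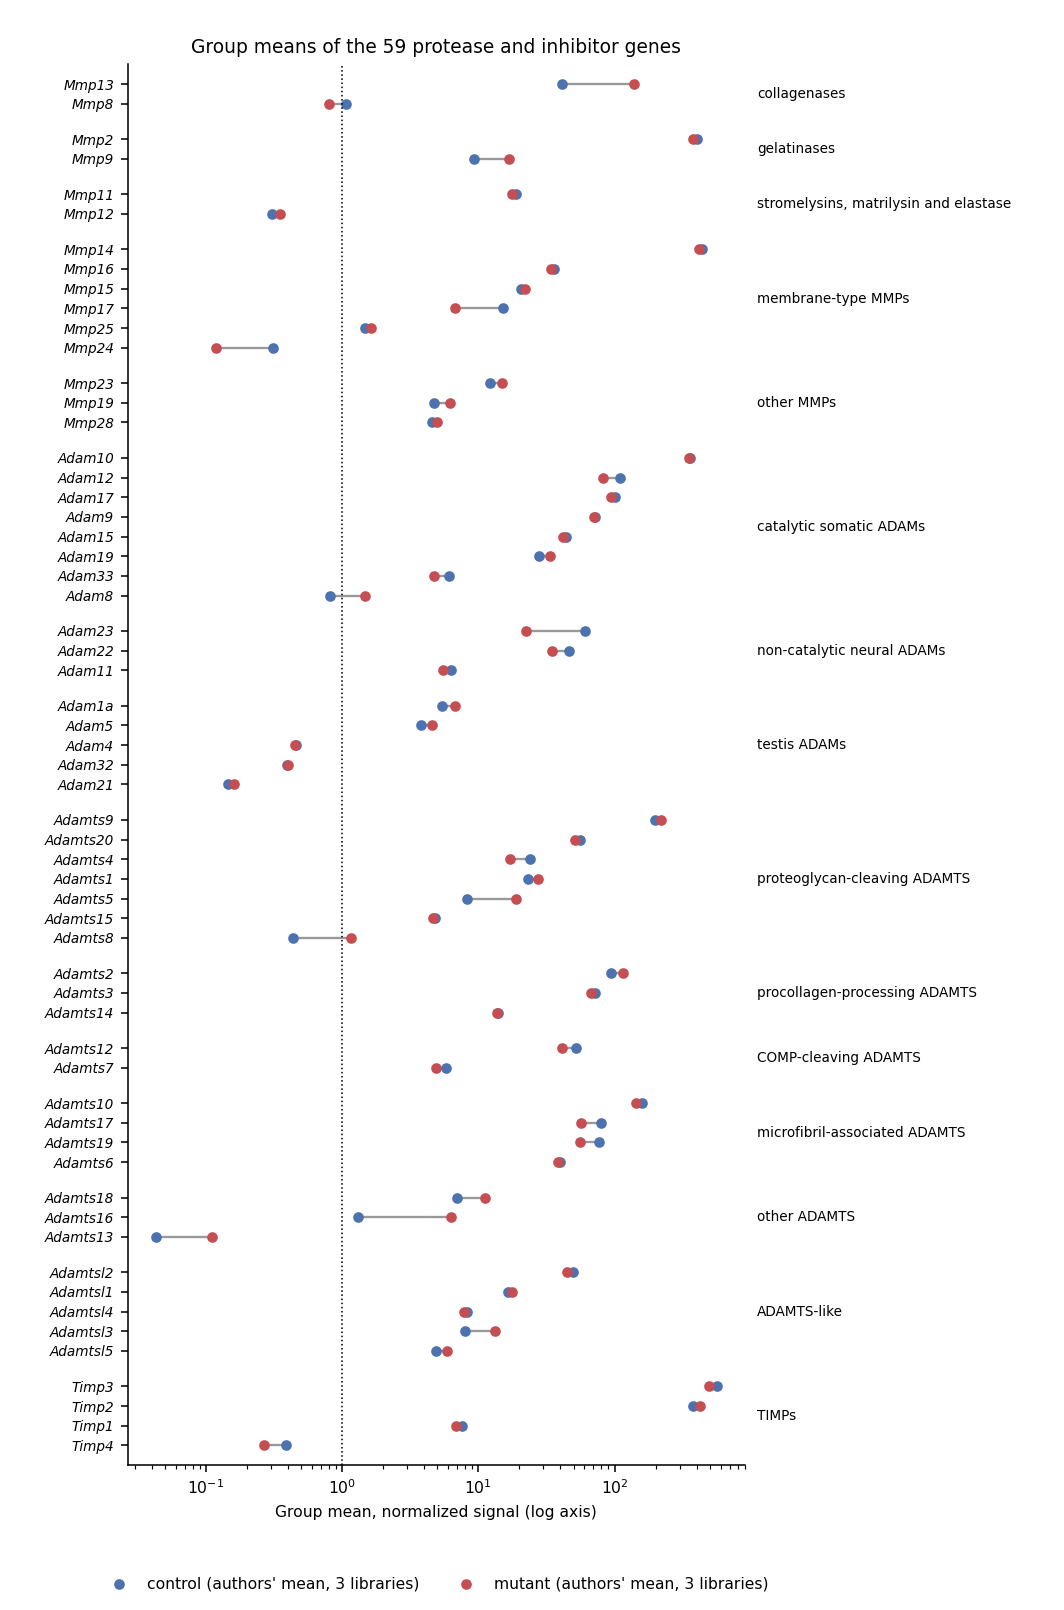
Authors' mean of the normalized signal in controls (blue) and mutants (red) for the 59 genes, on a log axis and ordered by role, with a dotted line at the minimum mean of 1. Most pairs of points nearly coincide, whereas *Mmp13* lies at 41.0 and 138.3, *Adamts16* at 1.31 and 6.26, and *Adam23* at 61.1 and 22.5.

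**Figure D2:**
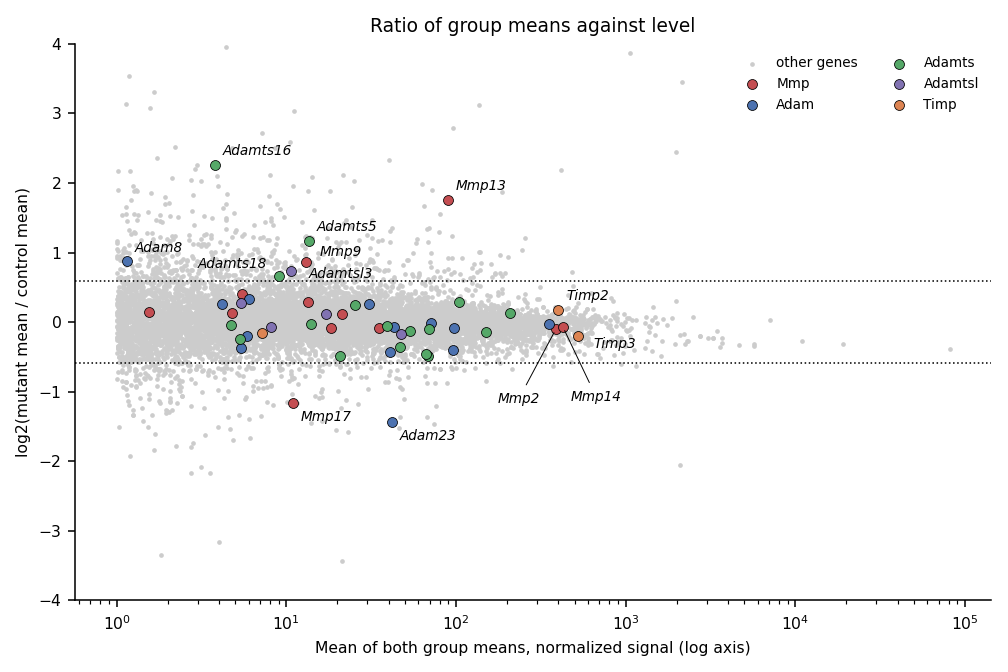
The log2 ratio of mutant to control mean against the mean of both (log axis) for genes with a mean of at least 1, with 14694 other genes in grey, of which 8 lie outside the axis, and dotted lines at 1.5-fold. *Mmp13* at 1.76 and *Adam23* at -1.44 are among the higher and lower ratios, with 58 and 26 of all 14744 genes at least as far out on that side.

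Among the collagenases, which cut the triple helix of fibrillar collagen, *Mmp13* (collagenase 3; chromosome 9, 7272514 to 7283331) had a mean of 41.0 in controls and 138.3 in mutants. This was a ratio of 3.38 (counting interval 3.27 to 3.49), and 58 of the 14744 genes, itself included, had a ratio at least as high. *Mmp8*, the neutrophil collagenase, had means of 1.08 and 0.796 and stayed under the minimum, beside neutrophil markers that summed to 23.7 and 18.8. *Mmp8* and *Mmp12* are neighbours of *Mmp13* on chromosome 9, from 7558456 to 7568485 and from 7344381 to 7369499. *Mmp12*, the macrophage elastase, was at 0.305 and 0.353, about 11 and 14 reads per library. Both neighbours stayed under the minimum of 1, and whether the region shares the ratio of *Mmp13* was not tested. *Mmp1a*, *Mmp1b*, *Mmp3*, *Mmp7*, *Mmp10*, *Mmp21*, *Mmp27* and *Adam28* were not analysed here.

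The promoter window of *Mmp13* is shown because this gene had the highest ratio among the *Mmp* genes and because matches to AP-1 letters, which the JUN and FOS factors bind, are well known in collagenase promoters. The sequence is RefSeq's for GRCm38.p6, 5′ to 3′ on the plus strand of chr9:7272264-7272563, from 250 bases before to 50 bases after the start of transcription. Capitals mark the RUNX letters AACCACA first and the AP-1 letters TGACTCA after them.
*Mmp13*: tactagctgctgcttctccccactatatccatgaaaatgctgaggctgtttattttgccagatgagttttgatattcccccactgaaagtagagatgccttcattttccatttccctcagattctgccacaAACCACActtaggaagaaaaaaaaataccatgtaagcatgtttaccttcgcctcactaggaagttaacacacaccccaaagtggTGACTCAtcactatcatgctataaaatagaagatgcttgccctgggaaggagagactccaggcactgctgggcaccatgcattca
The AP-1 letters are centred at -32 and the RUNX letters at -116 from the start. A window was found for 37 of the 59 genes (41 windows), and TGACTCA, searched on both strands and so also as TGAGTCA, was in 3 of these 41 (7.32%) and in 5.20% of all 32851 windows. AACCACA on either strand was in 1 of the 41, that of *Mmp13*, and in 5.27% of all. Among the genes past 1.5-fold, *Mmp9*, *Mmp17*, *Adamts5* and *Adamts16* had no window and were not searched. The other matches to AP-1 letters were in windows of *Mmp12* and *Adam19*, shown here with 12 bases on each side and the match in capitals.
*Mmp12*, chr9:7347318-7347348, plus strand: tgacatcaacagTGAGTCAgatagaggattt
*Adam19*, chr11:46055841-46055871, plus strand: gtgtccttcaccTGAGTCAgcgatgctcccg
The ratio was 1.199 for *Adam19* and 1.16 for *Mmp12*, whose mean is under the minimum of 1, with a counting interval of 0.741 to 1.96. Whether these letters bear on the ratios was not tested. A match describes letters only, and binding was not measured in these data.

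The gelatinases, which digest collagen already unwound, differed from each other in level and in ratio. *Mmp2* (gelatinase A; chromosome 8, 92827291 to 92853420) was the gene of the group with the highest level per kb of exon, at 119.0 in the controls and 110.8 in the mutants. Its means were 401.0 and 373.6, a ratio of 0.932. *Mmp9* (gelatinase B, abundant in osteoclasts; chromosome 2, 164940780 to 164955850) had means of 9.25 and 16.9, a ratio of 1.83 with a counting interval of 1.70 to 1.97. Beside it, the osteoclast markers *Acp5* and *Atp6v0d2* had control means of 12.9 and 0.546 and mutant means of 28.1 and 1.71, and *Ctsk* had 79.4 and 76.0. Of the 6 genes on the osteoclast list, 5 were in the table, and their summed means were 93.1 and 106.2. *Dcstamp* and *Ocstamp*, which osteoclast precursors need to fuse, were at 0.0924 and 0.0945 in the controls, under the value of 3 reads, and at 0.192 and 0.154 in the mutants. *Calcr* was not analysed here. The part of osteoclasts in the ratio of *Mmp9* was not tested.

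Among the membrane-type enzymes, *Mmp14*, which cuts collagen at the cell surface and activates the proenzyme of MMP2 together with TIMP2, had means of 437.3 and 416.5, a ratio of 0.952. *Mmp17*, an enzyme held to the membrane by a lipid anchor (chromosome 5, 129584169 to 129611099), had means of 15.1 and 6.75. It was 2.24-fold lower (ratio 0.446, counting interval 0.410 to 0.483), and 52 of the 14744 genes had a ratio as low. *Mmp25*, which has the same kind of anchor, was at 1.48 and 1.64. *Mmp15* and *Mmp16* were within 1.09-fold and 1.06-fold of the controls, in opposite directions. *Mmp24* was at 0.311 and 0.119, or about 11 and 4 reads per library, and its counting interval of 0.170 to 0.686 is wide. The remaining *Mmp* genes with a mean of at least 1, namely *Mmp11*, *Mmp19*, *Mmp23* and *Mmp28*, had log2 ratios from -0.08 to 0.40.

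Of the 8 catalytic somatic ADAM genes, 6 had ratios under 1 and 7 were within 1.5-fold, and all 3 non-catalytic ADAM genes had ratios under 1, with 2 within 1.5-fold. Among all 14744 genes with a mean of at least 1, 7171 had ratios under 1. *Adam10*, the sheddase of Notch receptors, had means of 358.0 and 350.6, a ratio of 0.979. *Adam17*, which releases TNF and ligands of the EGF receptor, had 100.1 and 94.2, and *Adam9* had 71.9 and 71.1. *Adam8*, an enzyme of leukocytes and osteoclasts, was the catalytic one past 1.5-fold, at 0.809 and 1.48. That is about 30 and 63 reads per library, a ratio of 1.83 with a counting interval of 1.44 to 2.42. *Adam12*, known from regenerating muscle and from mesenchyme, had 108.8 and 82.6, a ratio of 0.759, and *Adam33*, *Adam19* and *Adam15* had ratios of 0.776, 1.199 and 0.951.

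*Adam23*, *Adam22* and *Adam11* encode ADAM proteins without an active protease site, best known from neurons, where ADAM22 and ADAM23 bind LGI proteins. All 3 had lower means in the mutants, with 1 past 1.5-fold. *Adam23* (chromosome 1, 63445891 to 63596276) had means of 61.1 and 22.5, and was 2.72-fold lower (ratio 0.368, counting interval 0.352 to 0.384). Its log2 ratio was -1.44, and 26 of the 14744 genes, itself among them, had a ratio as low. *Adam22* had 46.6 and 34.5, a ratio of 0.742, and *Adam11* had 6.29 and 5.46, a ratio of 0.868. The 4 listed glial markers summed to 19.96 in controls and 19.13 in mutants, a ratio of 0.959.

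The promoter window of *Adam23*, the gene with the lowest ratio, is shown beside that of *Mmp13*, the *Mmp* gene with the highest. This pair was chosen with ratios and CpG counts known. A link of CpG dinucleotides to ratios was not tested, and *Adamts16* and *Mmp17* had no window. The window of *Adam23* is RefSeq's plus strand sequence of chr1:63445641-63445940 in GRCm38.p6, 5′ to 3′, over the same distances from the start. Every CpG dinucleotide is in capitals.
*Adam23*: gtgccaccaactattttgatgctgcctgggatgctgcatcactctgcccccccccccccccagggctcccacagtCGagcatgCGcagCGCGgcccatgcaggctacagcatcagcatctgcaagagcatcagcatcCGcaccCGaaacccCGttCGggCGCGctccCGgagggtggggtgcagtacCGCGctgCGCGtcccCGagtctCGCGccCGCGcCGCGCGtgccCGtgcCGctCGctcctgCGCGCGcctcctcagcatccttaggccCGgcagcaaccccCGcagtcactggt
It holds 31 CpG dinucleotides, more than 89.4% of all windows, and that of *Mmp13* holds 1. The windows of the group had a median of 19 and all windows a median of 7. The windows of *Adamtsl3*, *Adamts18* and *Adam8*, genes with higher means in the mutants, held 46, 22 and 6.

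The ADAMTS genes that cut proteoglycans differed in direction. *Adamts5*, the main aggrecanase of mouse cartilage (chromosome 16, 85856173 to 85901828), had means of 8.31 and 18.8, a ratio of 2.26 (counting interval 2.10 to 2.44). *Adamts4*, another aggrecanase, had 24.1 and 17.2, a ratio of 0.713. *Adamts9*, the most abundant of this set, had 199.1 and 217.8, a ratio of 1.09, and *Adamts1*, *Adamts15* and *Adamts20*, which also cut versican or aggrecan, had ratios of 1.19, 0.977 and 0.916. *Adamts8* was at 0.439 and 1.16, about 16 and 49 reads per library. Its ratio of 2.64 had a counting interval of 1.97 to 3.89, but its mean lies under the minimum of 1. The proteoglycans that these enzymes cut had lower means in the mutants, with *Acan* at 30.6 and 14.1, *Vcan* at 1788 and 1484, *Bcan* at 2.67 and 1.78 and the link protein *Hapln1* at 251.2 and 221.1.

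The other 2 higher ADAMTS genes are less well known for their substrates. *Adamts16* (chromosome 13, 70727802 to 70841811) had means of 1.31 and 6.26, the highest ratio of the group at 4.78. It rests on about 50 and 270 reads per library (counting interval 4.07 to 5.82), and 27 of the 14744 genes had a ratio at least as high. *Adamts18* (chromosome 8, 113697126 to 113848738) had 7.001 and 11.1, a ratio of 1.59 with a counting interval of 1.46 to 1.74. *Adamts13*, which cuts von Willebrand factor, was under the value of 3 reads in the controls and at 0.111 in the mutants, which makes it at least 1.07-fold higher.

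No ADAMTS gene of the procollagen or microfibril sets passed 1.5-fold. *Adamts2*, *Adamts3* and *Adamts14*, which remove the amino-terminal propeptide of procollagens, had ratios of 1.23, 0.938 and 0.986. The 4 genes of the microfibril set, in which ADAMTS19 is the closest relative of ADAMTS17, all had lower means in the mutants, with *Adamts17* at 79.7 and 56.7, *Adamts19* at 76.9 and 55.9, *Adamts10* at 157.8 and 143.3 and *Adamts6* at 40.1 and 38.5. Over all 14744 genes with a mean of at least 1, 7171 had ratios under 1. *Adamts7* and *Adamts12*, which cut cartilage oligomeric matrix protein, had ratios of 0.848 and 0.782. Of the ADAMTS-like genes, which lack a protease domain and of which several bind microfibrils, *Adamtsl3* (chromosome 7, 82335694 to 82614450) had 7.99 and 13.4, a ratio of 1.67 with a counting interval of 1.54 to 1.81. The other ADAMTS-like genes had log2 ratios from -0.17 to 0.27.

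All 3 *Timp* genes with a mean of at least 1 were within 1.15-fold. *Timp3*, which binds to matrix and blocks ADAM17 and aggrecanases as well as MMPs, had means of 561.9 and 489.7, a ratio of 0.872. *Timp2* had 375.2 and 424.5, a ratio of 1.13, and *Timp1* had 7.61 and 6.85, a ratio of 0.900. *Timp4* was at 0.387 and 0.265, about 14 and 10 reads per library, and the counting interval of its ratio included 1. The summed means of the 4 were 945.1 and 921.3.

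Levels between genes were compared per kb of exon, from the union of all annotated exons, so long rare exons lower a value. In the controls the order was *Mmp2* (119.0), *Timp2* (96.3), *Mmp14* (73.4), *Adam10* (72.9) and *Timp3* (69.0), far above *Adamts10* (19.1), *Adam9* (17.5) and *Mmp13* (15.3). In the mutants *Mmp13* stood at 51.7, next after *Timp3* at 60.1, and ranked 6 instead of 8. *Mmp2* and *Timp2* came to 110.8 and 109.0 per kb in the mutants. Whether neighbours in this order differ beyond the spread between mice is not known from group means.

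**Figure D3:**
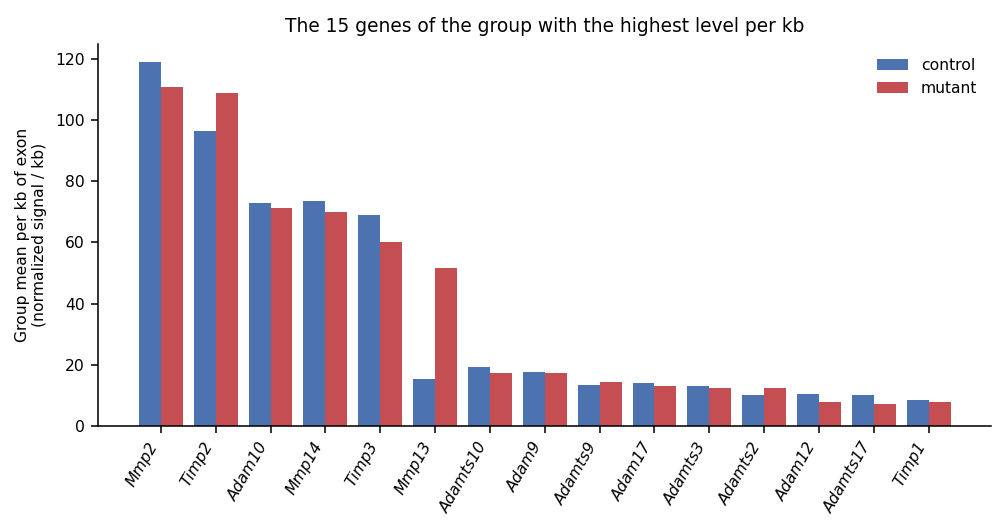
Group means per kb of exon (normalized signal per kb, axis from 0) in controls (blue) and mutants (red) for the 15 genes with the highest level, with no error bars because values of single libraries were not analysed here. *Mmp13* goes from 15.3 to 51.7, and the 5 genes to its left stay above it in both groups.

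Of 54 other genes of matrix breakdown and shedding, 47 were in the table and 42 had a mean of at least 1. Of these, 5 were at least 1.5-fold higher (11.9%) and 3 at least 1.5-fold lower (7.14%), against 4.14% and 1.91% of all genes, with a median log2 ratio of 0.02. The higher ones were *Pcsk6*, a convertase (16.3 and 25.7), *Plaur*, the urokinase receptor (2.29 and 3.61), *Serpine2*, an inhibitor of plasminogen activators (71.1 and 114.5), *Tll1*, a tolloid protease (4.73 and 10.7), and *Egf* (1.11 and 1.76). The lower ones were *Prss23*, a secreted serine protease (263.6 and 164.9), and the proteoglycans *Acan* and *Bcan*. None of the 10 listed cell-surface regulators and none of the 7 cathepsins passed 1.5-fold, and *Reck*, a membrane-bound inhibitor of MMPs, had 134.5 and 134.1. *Furin*, which activates many proenzymes of these families, had 161.0 and 163.9.

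**Figure D4:**
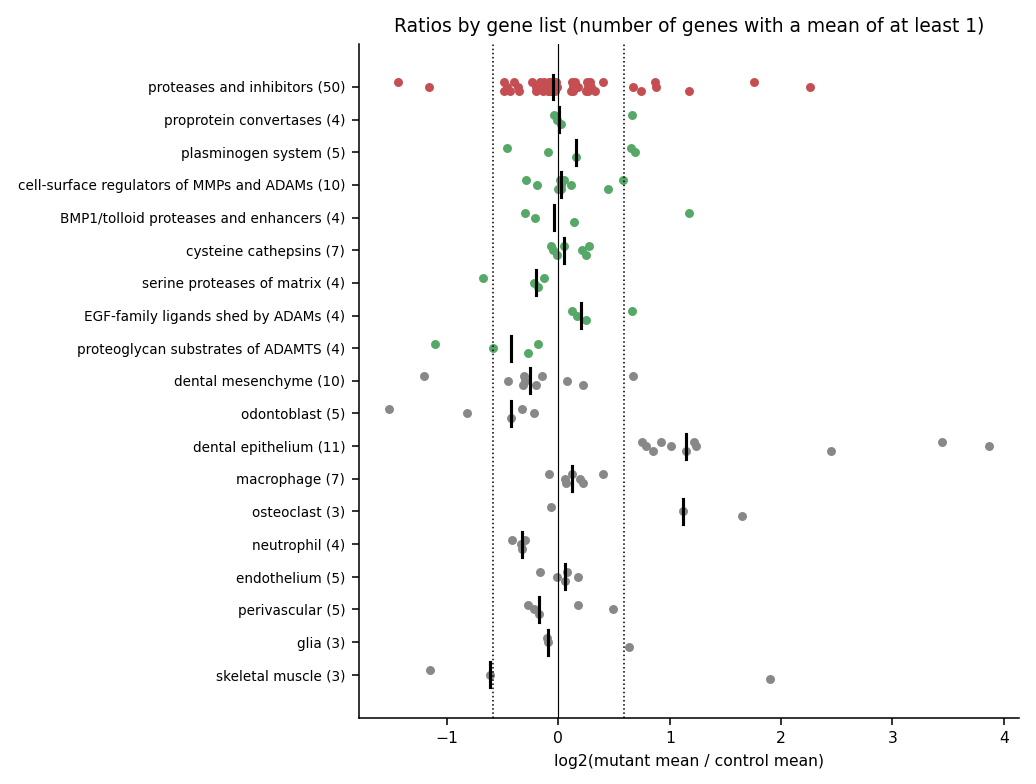
The log2 ratio of each gene with a mean of at least 1, by list, with the number of genes in brackets, the median as a black bar, and dotted lines at 1.5-fold. The proteases and inhibitors (red) have a median of -0.05, the dental epithelium markers lie wholly to the right of the upper 1.5-fold line with a median of 1.15, and the odontoblast markers lie to the left of 0 with a median of -0.42.

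The plot of ratios by list also shows the other cell types. All 5 odontoblast markers had lower means in the mutants, with log2 ratios from -1.52 for *Dmp1* to -0.22 for *Phex*, and 7 of the 10 dental mesenchyme markers had too. The 7 macrophage markers had log2 ratios from -0.08 to 0.40, the 5 endothelial ones from -0.16 to 0.17, the 5 perivascular ones from -0.27 to 0.49, and the 4 neutrophil markers with a mean of at least 1 from -0.41 to -0.30. Of 3 glial markers at that level *S100b* was higher, at 1.18 and 1.83, and of 3 skeletal muscle markers *Myh4* was higher and *Acta1* and *Tnnt3* were lower, all at means under 3. Several values may include reads of another gene, since the sources used here do not state whether reads were counted by strand. Exons of *Timp3*, *Adamts9*, *Adam17*, *Adamts4* and *Adam8* overlap those of a gene on the other strand by 1733, 1381, 311, 171 and 46 bases. Other genes of the group have such overlaps too, for example *Adam15*, *Mmp19*, *Mmp24* and *Adamts8* with 1263, 789, 637 and 489 bases. No such overlap was found for *Mmp13*, *Mmp9*, *Mmp17*, *Adam23*, *Adamts5*, *Adamts16*, *Adamts18* or *Adamtsl3*.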

How the data were processed

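Bulk RNA-seq of the proximal incisor was deposited for 3 control and 3 mutant libraries. According to the methods, reads were trimmed, aligned to the mm10 genome and tested for differences with Partek Flow, and TopHat2 2.0.8 is named in the submitters' processing notes. The counting, annotation and normalization are not given in the sources used here. The deposited table holds, per gene, the authors' group means of a normalized signal, which were used, and the p-value, FDR, ratio and fold change of the authors' comparison, which were not. A second, shorter table with the same columns was not used. One *Mmp* gene is not reported here. The deposited library summary gave the lowest value, mean and upper quartile of the signal per library, and 5 of its other numeric columns were not used.

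The ratio of mutant to control mean was computed for every gene, with means at or under 3 reads set to that value, which makes the ratio a bound. A mean of both groups of at least 1 and a ratio of 1.5-fold, the fold of the study, defined higher and lower genes. A test by limma, planned for values of single libraries, was not run because the gene table gives group means. Alternatives were other minimum means and folds, a pseudocount, centring, a shorter gene set and the mean of the ratios. The functions were tested on simulated data. Named genes were *Adam23*, *Adamts18*, *Mmp2*, all *Timp* genes, those past 1.5-fold, the 10 highest per kb, and 3 on each side of the threshold, and the other genes of the group are given for completeness. The genes of the group, the lists (15 by role, 8 of the pathway, 11 of markers) and the rule were chosen with earlier results of these data known. Positions and exon lengths are from GENCODE vM21 on GRCm38 (mm10), which held all 59 names, and are 1-based. Calculations ran in Python 3.11.15 with scipy 1.17.1, pandas 2.3.3 and numpy 2.4.6, and plots were drawn with matplotlib 3.10.9.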

Additional observations from a re-analysis of the deposited data

How the results depend on the processing

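The count of genes at least 1.5-fold higher was 7, and it was 4 with a mean of at least 10 and 3 at a 2-fold threshold. Those 3 were *Mmp13*, *Adamts5* and *Adamts16*. The count of lower genes was 2 in the report and 9 at a ratio of 0.8 or less, where 7 others including *Adam22*, *Adam12* and *Adamts17* joined *Adam23* and *Mmp17*. At that lower fold 9 genes were higher. The other counts of higher genes, from 6 to 8, and of lower genes, from 2 to 3, with no filter, a pseudocount of 1, centring on all genes, or without the testis ADAM genes, stayed within 1.5 times 7 and 2. Shares of all genes past the threshold were computed only for 1.5-fold, at a mean of at least 1 and of at least 10. The counts under the other settings have no such share beside them and only describe these genes. *Adam23* and *Mmp17* were among the lower genes under each alternative run. The median log2 ratio of -0.05 became -0.0729 with a mean of at least 10, -0.0300 with no filter, -0.0434 with a pseudocount of 1 and -0.0644 without the testis ADAM genes, and the mean in its place was 0.0772. Extreme ratios weigh in a mean and hardly in a median, and the log2 ratios ran from -1.44 for *Adam23* to 2.26 for *Adamts16*. Of 46 values for 23 named genes with a pseudocount of 1 or centring, 44 stayed inside the counting interval and none changed direction, with *Adam8* and *Adamts16* the exceptions at a pseudocount of 1. *Adam8* was then no longer past 1.5-fold. No paired analysis was possible because the deposited values are group means, and for the same reason leaving out a replicate was not run. Depth limits *Adamts13*, *Mmp24*, *Mmp12*, *Adam21*, *Timp4*, *Adam32* and *Adam4*, with at most 19 reads per library in both groups.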

Other observations

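Of the 21 listed ADAM genes best known from testis, 5 were analysed here. *Adam1a* had a control mean of 5.37 and a mutant mean of 6.74, and *Adam5* had 3.82 and 4.56. The exons of *Adam1a* share 4779 bases with *Gm42878* and 1805 with *Mapkapk5* on the same strand, so its value is uncertain. *Adam4*, *Adam32* and *Adam21* had means of at most 0.455 in both groups.

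The GC box letters GGGCGG, searched on both strands, were in 27 of the 41 promoter windows of the group (65.9%) and in 35.7% of all 32851 windows. They were in the windows of *Mmp14*, *Timp2*, *Timp3*, *Adam10* and *Adam17*. Of the 7 genes at least 1.5-fold higher, *Mmp9*, *Adamts5* and *Adamts16* had no window here, and the letters were in the windows of *Adam8*, *Adamts18* and *Adamtsl3*. These letters were in neither the window of *Mmp13* nor that of *Adam23*, and the lower gene *Mmp17* had no window.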
